A study of Homo sapiens with 90 samples.

Results

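The histone genes were followed through the A673 exposures. Members were the genes of the clustered and linker histone families that a probe set names alone, that is, probe sets annotated to 1 gene whose current symbol starts with H1-, H2AC, H2BC, H3C or H4C. These were 72 probe sets for 60 genes, out of 19774 genes named by probe sets with 1 symbol. Where a gene had several, the probe set that was brightest on average in the 90 columns stood for it. There were 11 H1, 12 H2A, 16 H2B, 9 H3 and 12 H4 genes. Of the 60, 56 code for protein, 3 are pseudogenes (H1-9P, H2AC5P and H4C10P) and 1 is the antisense RNA H1-10-AS1. A further 7 histone probe sets name more than 1 gene and were left out, and 16 members rest on probe sets of the s_at or x_at type, whose probes can match several near-identical histone genes. H1-10 and H1-10-AS1 overlap at their starts.

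A673 is a human Ewing sarcoma line that carries the EWSR1-FLI1 fusion. The cells were plated at 26000 per well and exposed for 24 h to fenbuconazole (a triazole fungicide), imazalil (an imidazole fungicide) or 2,4-D (2,4-dichlorophenoxyacetic acid, a chlorophenoxy herbicide). Each chemical was given at 9 concentrations from 0.001 to 10 µM, and all wells, vehicle wells included, held 0.2% DMSO. Every group had 3 arrays, so each chemical's set held 30 columns, 27 of them treated. The study's methods describe 3 independent experiments on separate batches of 1 purchased cell line. The labels number the arrays 1 to 3 without saying what a number stands for, and p-values measure the spread between these arrays.

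Histones package DNA. Pairs of H2A and H2B and of H3 and H4 form the core around which DNA is wound, and H1 linker histones bind where the DNA enters and leaves it. Most of the genes lie in clusters and are switched on as DNA is copied. Their mRNAs end in a stem-loop rather than a poly(A) tail, although some of them, H2BC12, H2BC5, H2AC6, H2BC21 and H1-2 included, are also known to make polyadenylated transcripts. H1-10 is a linker histone whose mRNA carries a poly(A) tail. The labelling kit used here starts from poly(A) tails, so what the probe sets read is the part of the histone mRNA that such priming reaches. Levels are log2 RMA values, a log2 scale on which 1 unit is a 2-fold difference. They cannot be set against each other between probe sets or between the sets of the 3 chemicals, which were normalised separately.

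The promoters of 6 members are shown, because H1-1, H1-2, H1-3 and H1-4 varied together from array to array and H2AC6 and H2BC12 differed most clearly between replicate numbers. Each is the 130 bases before the RefSeq start site (GRCh38.p14), written 5′ to 3′ on the gene's strand. Capitals mark the CCAAT box (CCAAT or its reverse ATTGG), the TATA box (TATAAA), the octamer (ATTTGCAT or its reverse ATGCAAAT) and the H1 box AAACACA. The windows are chr6:26017788-26017917 for H1-1, chr6:26056471-26056600 for H1-2, chr6:26234988-26235117 for H1-3 and chr6:27146859-27146988 for H2BC12, all on the minus strand. Those of H1-4 (chr6:26156199-26156328) and H2AC6 (chr6:26124042-26124171) are on the plus strand.
H1-1: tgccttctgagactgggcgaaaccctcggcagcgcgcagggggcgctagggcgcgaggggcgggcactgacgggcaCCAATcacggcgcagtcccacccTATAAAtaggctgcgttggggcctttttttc
H1-2: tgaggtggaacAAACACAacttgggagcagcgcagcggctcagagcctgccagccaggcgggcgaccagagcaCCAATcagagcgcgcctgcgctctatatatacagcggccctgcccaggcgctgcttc
H1-3: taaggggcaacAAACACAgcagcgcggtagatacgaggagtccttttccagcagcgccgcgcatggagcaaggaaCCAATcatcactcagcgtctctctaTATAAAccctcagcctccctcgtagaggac
H1-4: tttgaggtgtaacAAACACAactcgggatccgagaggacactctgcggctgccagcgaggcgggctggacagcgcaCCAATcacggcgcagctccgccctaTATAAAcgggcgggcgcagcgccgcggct
H2AC6: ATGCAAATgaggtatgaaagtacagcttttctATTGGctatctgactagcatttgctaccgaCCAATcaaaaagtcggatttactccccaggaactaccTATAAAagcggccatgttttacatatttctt
H2BC12: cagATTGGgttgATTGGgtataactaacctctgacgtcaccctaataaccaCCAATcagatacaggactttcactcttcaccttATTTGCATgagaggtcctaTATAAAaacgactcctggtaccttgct

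The 4 linker promoters hold a CCAAT box that begins between -57 and -54, counted from the start site. Those of H1-2, H1-3 and H1-4 also hold the H1 box, which begins between -119 and -117, and in H1-1 the match lies outside the printed stretch, at -183. The promoter of H1-5, a linker gene that varied less closely with these 4, likewise holds a CCAAT box at -53 and the H1 box at -117. A link between the motifs and the shared variation was not tested. H2AC6 and H2BC12 carry the octamer, at different distances from the start. RefSeq promoters were matched for 51 of the 60 members, and the 250 bases before the start were searched on both strands, with no rule on overlap between motifs. The octamer was found in 12 of 15 H2B and 7 of 11 H2A promoters and in none of the 9 H1, 7 H3 and 9 H4 promoters, against 1.66% of all 27305 promoters. The H1 box was found in 7 of 9 H1 promoters and in no promoter of another histone family, against 4.95% of all. A CCAAT box was found in 44 of 51 (33.0% of all promoters) and TATAAA or its reverse TTTATA in 34 of 51 (11.1% of all). In the H4 family the CCAAT box was found in 3 of 9 promoters (33.3%), near the share of all promoters. H2A and H2B genes that stand head to head share much of these windows. H2BC4, for example, runs leftward from base 26123926 of chromosome 6, and H2AC6 rightward from base 26124172.

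The cells carried the markers of their label. All 7 measured Ewing sarcoma markers lay above their set's median in each set, between 7.69 and 12.5. Of 5 liver markers for HepaRG cells, which the study also used, 1 lay above the median in each set, and of 6 MCF7 markers 3 or 4 did. Fibroblast markers were mixed, with COL1A1 and COL1A2 well above the median and LUM below it in each set. The labels call the DMSO arrays common to the 3 chemicals. The imazalil and 2,4-D columns of the same number matched (r of at least 0.867 after centring each probe set), whereas the fenbuconazole columns correlated with them at 0.105 to 0.198. The comparisons with DMSO are therefore treated as sharing controls, and their values are set side by side without counting agreement between them. In each set and replicate number the running number in the labels went up as the concentration went down (9 of 9 series), so processing order and concentration cannot be told apart.

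In vehicle-treated cells the histone genes ranged from among the brightest probe sets on the array to background. Averaged over each set, 38 of the 60 lay above the median of all probe sets in the fenbuconazole set, 44 in the imazalil set and 43 in the 2,4-D set. In all 3 sets 37 did (6 of 11 H1, 9 of 12 H2A, 11 of 16 H2B, 5 of 9 H3 and 6 of 12 H4 genes), and 15 did in none. The medians of all probe sets were 2.77, 3.34 and 3.41. H4C3, which codes for the core histone H4, had the highest signal, at 12.72 ± 0.11 (SD, n = 3) in the fenbuconazole DMSO arrays, 12.76 ± 0.08 in those of imazalil and 12.85 ± 0.09 in those of 2,4-D. The next highest in the fenbuconazole DMSO arrays were H2BC12 at 8.03 ± 0.05, H1-10 at 7.99 ± 0.04, H1-1 at 7.76 ± 0.29 and H1-2 at 7.64 ± 0.63. In the other sets these stood at 8.76 to 8.86 for H2BC12, 8.69 to 8.74 for H1-10, 8.69 to 8.77 for H1-1 and 8.30 to 8.37 for H1-2, with H2BC12L, a copy of H2B on chromosome 21, at 8.46 to 8.48. Among these bright genes the vehicle arrays spread the most for H1-2, with SDs of 0.63 to 0.70, and little for H2BC12, with SDs of 0.04 to 0.05.

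The lowest signals in the fenbuconazole DMSO arrays were those of H2BC1, the testis-specific H2B, at 2.01, H4C10P at 2.16, H2BC17 at 2.20, H2BC11 at 2.36 and H2AC18 at 2.40. All lay under the set's median. Because different probe sets bind with different strength, this order is one of signals and not of mRNA amounts.

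**Figure D1:**
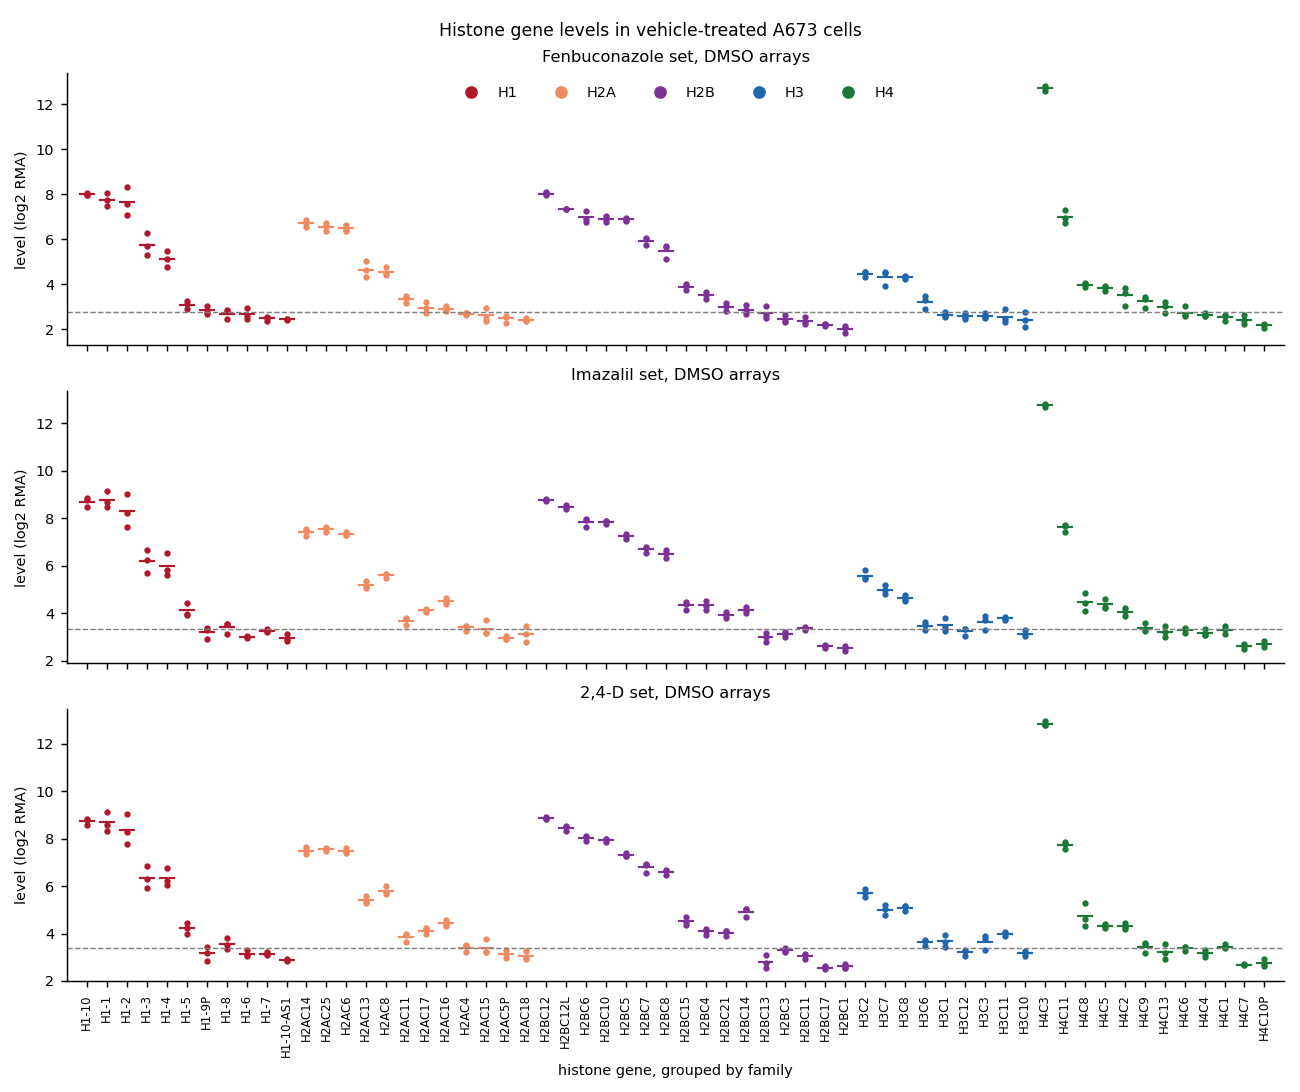
Level of each of the 60 histone genes (log2 RMA, vertical axis) on the 3 DMSO arrays of each chemical's set, grouped by family. Points are arrays, short bars are means and the dashed line is the median of all probe sets in the set, and H4C3 stands far above every other member, with means of 12.72 to 12.85.

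Fenbuconazole at 10 µM changed no histone gene past the threshold. None of the 60 had an adjusted p under 0.05 by limma with Benjamini-Hochberg adjustment (smallest 0.472), and of all 54613 probe sets 0% did. At an unadjusted p under 0.05 there were 5 members (7% of all probe sets). By sign, 32 were higher and 28 lower (49.9% of all probe sets were higher), with a median change of 0.0054 against -0.00021 over all probe sets. The 10 µM and DMSO arrays did not overlap for 5 higher members (5.39% of all probe sets) and 3 lower ones (5.76%). The H1 family had a median of +0.12 (7 of 11 higher), and the medians of the other families lay between -0.041 and +0.054. In bulk RNA, fewer cells making a histone mRNA and less of it per cell cannot be told apart.

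The largest differences upward were in linker histones. H1-2 read 7.06, 8.31 and 7.56 on the DMSO arrays 1 to 3 and 8.02, 7.75 and 8.71 at 10 µM. The second DMSO array was well above the other two, and the groups overlapped. The difference was +0.52 (SE 0.28, adjusted p 0.744 by limma), and it was +1.05 without number 2, +0.20 without number 3 and +0.29 without number 1. H1-3, another somatic linker histone, read 5.30, 6.29 and 5.68 in DMSO and 6.18, 5.99 and 6.69 at 10 µM, a difference of +0.53 (SE 0.27, adjusted p 0.726 by limma). H1-1 differed by +0.49 and H1-4 by +0.48, genes named here after their values were seen. Their DMSO arrays stood in the same order, with the second the highest.

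H3C1, one of the genes for the replication-coupled histone H3.1, read 2.76, 2.52 and 2.60 in DMSO and 3.34, 3.09 and 2.95 at 10 µM. Every treated array was above every vehicle array, although all 6 lay near the set's median of 2.77. The difference was +0.50 (SE 0.15, a fold of 1.41, p 0.00261, adjusted p 0.472 by limma). Downward, H4C6 read 2.57, 3.02 and 2.61 in DMSO and 2.47, 2.44 and 2.35 at 10 µM, a difference of -0.31 (SE 0.13, adjusted p 0.634 by limma). H4C8, like H4C6 a gene for H4, differed by -0.30 (SE 0.14), though another of its 3 probe sets differed by -0.036. H3C7 differed by -0.25 (SE 0.18), with overlapping groups.

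For H2BC12, H2AC6, H2BC21 and H2BC5, which are also known to make polyadenylated mRNA, the differences lay between -0.18 and -0.039. H2BC12 read 7.98, 8.03 and 8.07 in DMSO and 7.95, 8.04 and 7.90 at 10 µM, a difference of -0.064 (95% interval -0.27 to 0.14). H2AC6, an H2A gene, differed by -0.039 (-0.30 to 0.23) and H2BC21 by -0.082 (-0.35 to 0.19). H2BC5 read 6.83, 6.95 and 6.86 in DMSO and 6.60, 6.77 and 6.72 at 10 µM, without overlap. Its difference was -0.18 (-0.44 to 0.071), but a second probe set of the gene differed by +0.12. Over the 60 members the median half-width of the 95% interval was 0.28, and 56 intervals lay within a 2-fold change in either direction.

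Imazalil at 10 µM likewise changed no histone gene past the threshold. No member had an adjusted p under 0.05 by limma (smallest 0.890; 0% of all probe sets), and 4 had an unadjusted p under 0.05 (4.75% of all). There were 31 higher and 29 lower (51.3% of all probe sets were higher), with a median of 0.0058 against 0.0036 over all probe sets. Groups did not overlap for 2 higher members (4.31% of all) and 4 lower ones (3.66%). H2AC5P, an H2A pseudogene, read 2.92, 2.93 and 3.05 in DMSO and 3.39, 3.10 and 3.42 at 10 µM. All 3 treated arrays were above the vehicle arrays, by +0.34 on average (SE 0.11, p 0.00502, adjusted p 0.890 by limma). H1-2 differed by +0.30 (SE 0.29), from 7.65, 9.04 and 8.22 in DMSO to 8.73, 8.56 and 8.53. The second DMSO array was the highest of the 6. H3C1 differed by +0.29 (SE 0.14), with overlap.

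Downward under imazalil, H2AC16 read 4.50, 4.41 and 4.66 in DMSO and 4.42, 4.16 and 4.05 at 10 µM, a difference of -0.31 (SE 0.13). H4C5 differed by -0.25 (SE 0.12) and H3C10 by -0.25 (SE 0.13), both without overlap between groups, and all 3 had adjusted p 0.9998 by limma. Of the genes with polyadenylated forms, H2BC21 differed by +0.22 (95% interval -0.074 to 0.52), H2AC6 by +0.10 (-0.089 to 0.30), H2BC5 by 0.0048 (-0.17 to 0.18) and H2BC12 by -0.066 (-0.21 to 0.081). All 60 intervals lay within a 2-fold change, with a median half-width of 0.28.

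With 2,4-D at 10 µM no member was called by limma (smallest adjusted p 0.9998; 0% of all probe sets). An unadjusted p under 0.05 was found for 2 (3.85% of all). There were 26 higher and 34 lower (47.2% of all probe sets were higher), with a median of -0.015 against -0.0072 over all probe sets. Groups did not overlap for 4 higher members (3.22% of all) and 3 lower ones (3.8%). H4C1, an H4 gene, read 3.42, 3.55 and 3.37 in DMSO and 3.92, 3.72 and 3.65 at 10 µM. The treated arrays were all above the vehicle arrays, by +0.32 on average (SE 0.099, p 0.00351, adjusted p 0.9998 by limma). H3C10 differed by +0.24 (SE 0.16) and H3C11 by +0.21 (SE 0.13). The 3 treated H3C11 arrays, at 4.18, 4.21 and 4.22, were above the vehicle arrays at 3.88, 4.06 and 4.04.

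Downward under 2,4-D, H2AC16 read 4.37, 4.33 and 4.58 in DMSO and 3.80, 4.19 and 4.35 at 10 µM, a difference of -0.31 (SE 0.19). H2BC8, an H2B gene, differed by -0.29 (SE 0.14), with the same value from its other probe set, and H4C10P by -0.25 (SE 0.096). H2AC6 differed by +0.12 (95% interval -0.098 to 0.34), H2BC21 by +0.11 (-0.14 to 0.36), H2BC5 by +0.021 (-0.16 to 0.20) and H2BC12 by -0.015 (-0.18 to 0.15). H1-2 differed by +0.10, with a wide interval of -0.59 to 0.79. The median half-width over members was 0.26, and all 60 intervals lay within a 2-fold change.

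**Figure D2:**
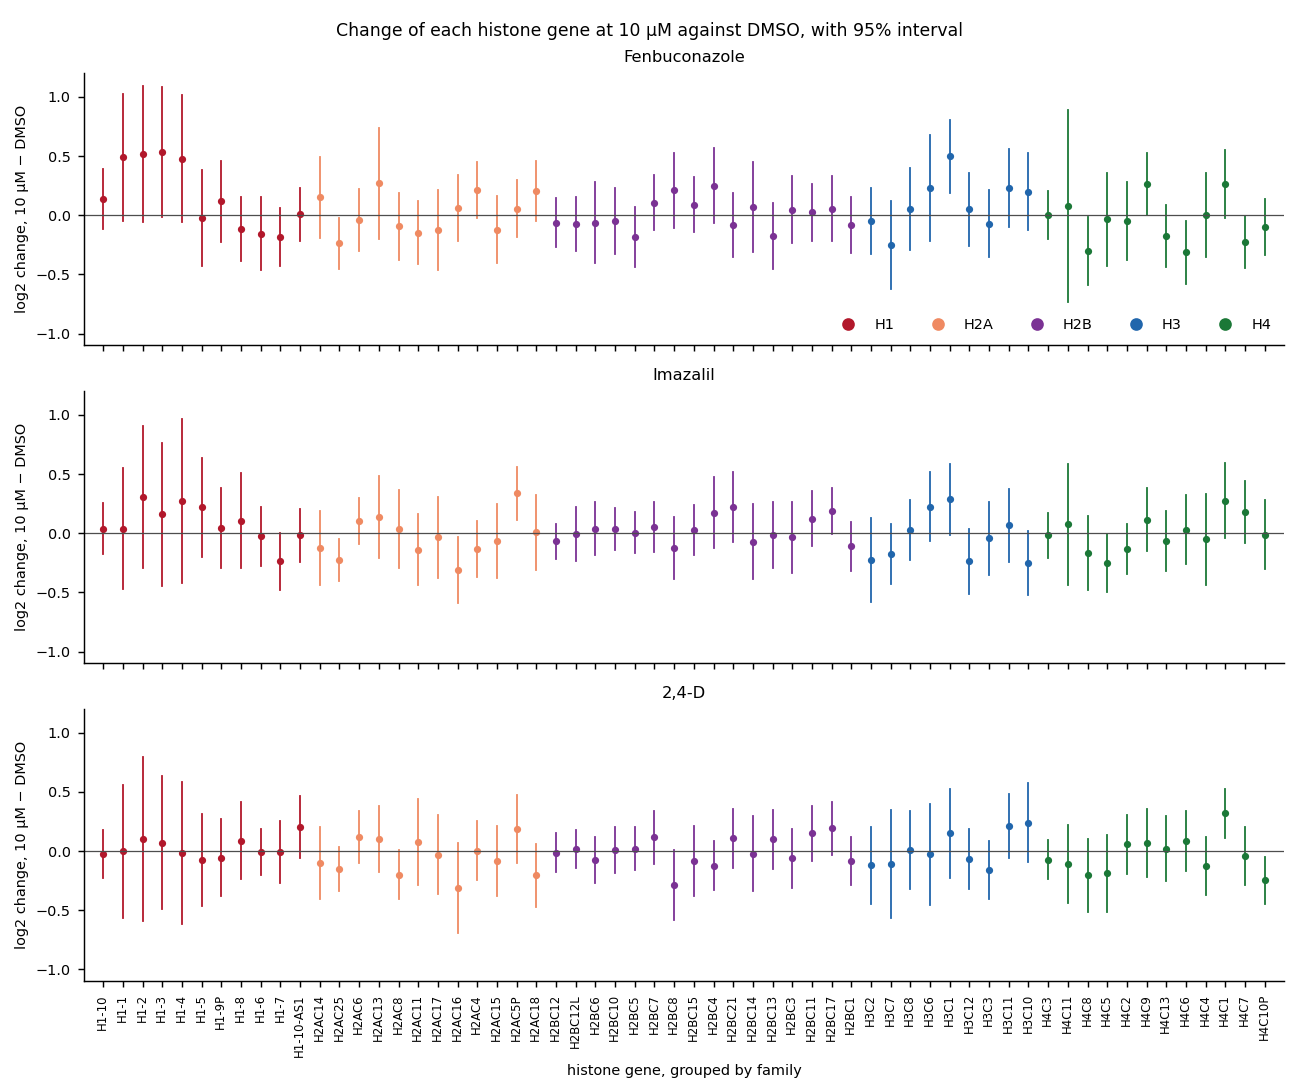
Difference in log2 level between 10 µM and DMSO (vertical axis) for each of the 60 histone genes under each chemical, with bars for the 95% interval of the limma fit. The points span -0.31 to 0.53 in the fenbuconazole panel, and the widest intervals include those of H4C11 and of H1-1, H1-2, H1-3 and H1-4.

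At the other 8 concentrations no member was called in any of the comparisons with DMSO, where at most 0.00183% of all probe sets were. The largest number at an unadjusted p under 0.05 was 9 members at 0.03 µM fenbuconazole (8.96% of all probe sets). It was followed by 8 at 0.3 µM fenbuconazole (7.41%) and 8 at 1 µM 2,4-D (4.75%). Over these 8 concentrations 28 to 40 members lay above DMSO under fenbuconazole, 34 to 44 under imazalil and 29 to 48 under 2,4-D. Of all probe sets 46.2% to 53.9% did. The highest counts were 48 of 60 at 1 µM 2,4-D (50.1% of all probe sets, member median +0.099) and 45 at 0.3 µM 2,4-D (49.8%, median +0.080). Next came 44 at 3 µM imazalil (52.1%, median +0.060). At 10 µM 32, 31 and 26 members were higher under fenbuconazole, imazalil and 2,4-D (49.9%, 51.3% and 47.2% of all probe sets). These comparisons all use the same 3 vehicle arrays of their set, so a vehicle array that stands apart enters each of them.

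The means at all 9 concentrations lay above DMSO for 17 members under fenbuconazole (13% of all probe sets), 14 under imazalil (12.1%) and 9 under 2,4-D (9.57%). They lay below it throughout for 4 (13.6%), 1 (10.4%) and 2 (11.1%). Under fenbuconazole H1-1, H1-2, H1-3 and H1-4 were all above DMSO at 9 of 9 concentrations, furthest at 0.03 µM, where H1-1 was 0.80 and H1-2 0.79 above it and H1-3 and H1-4 0.66 and 0.73. The lowest excess of each was at 1 µM, from 0.11 for H1-4 to 0.23 for H1-1. Under imazalil H1-2, H1-3 and H1-4 were also above DMSO at 9 of 9 concentrations and H1-1 at 4. Under 2,4-D H1-2 was above it at 9, H1-3 and H1-4 at 7 and H1-1 at 4.

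Setting 10 µM against the other 8 concentrations avoids the vehicle arrays. No member was called by limma under any chemical, and 0.00366%, 0.0128% and 0.00549% of all probe sets were called for fenbuconazole, imazalil and 2,4-D. An unadjusted p under 0.05 was found for 4, 7 and 5 members (6.13%, 5.78% and 6.46% of all probe sets). Under fenbuconazole 27 members were higher and 33 lower (50.3% of all probe sets were lower). The largest differences were +0.33 for H1-9P (SE 0.13), +0.30 for H3C1 (SE 0.12) and +0.21 for H1-3 (SE 0.19), and -0.23 for H2BC21 (SE 0.097), -0.22 for H2AC25 (SE 0.075, the smallest adjusted p of a member at 0.615) and -0.20 for H2BC14 (SE 0.14). H1-3 differed less from the other concentrations than from DMSO (+0.53).

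Under imazalil 21 members were higher and 39 lower than at the other 8 concentrations (51.5% of all probe sets were lower), with a median of -0.027 against -0.0033 over all probe sets. That median was -0.101 without replicate 1 and 0.019, of the opposite sign, without replicate 3. H3C7, an H3.1 gene, read 5.00, 4.67 and 4.78 at 10 µM, below the means of 5.07 to 5.33 at the other concentrations, a difference of -0.37 (SE 0.091, p 0.000400, adjusted p 0.426 by limma). H3C10 read 2.92, 2.88 and 2.87, against means of 3.13 to 3.30, a difference of -0.34 (SE 0.099, adjusted p 0.575 by limma). These values all lay below the set's median of 3.34. H2AC11 differed by -0.24 (SE 0.11). Upward, H4C7 differed by +0.23 (SE 0.098), H2AC5P by +0.21 (SE 0.085) and H1-5 by +0.21 (SE 0.15).

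Under 2,4-D 45 of the 60 were lower at 10 µM than at the other 8 concentrations, where 52.5% of all probe sets were, and 15 higher. The median was -0.082, against -0.0056 over all probe sets. H2BC4, which shares its start region with H2AC6, differed by -0.28 (SE 0.075, p 0.000874, adjusted p 0.375 by limma). The gene has 2 probe sets, which differed from DMSO at 10 µM 2,4-D with opposite signs, by -0.12 and +0.011. H2BC8 differed by -0.32 (SE 0.11) and its neighbour H2AC8 by -0.27 (SE 0.074, adjusted p 0.417 by limma). H2BC8 read 6.56, 6.14 and 6.21 at 10 µM, a mean of 6.30 against means of 6.44 to 6.77 at the lower concentrations, with single arrays overlapping. Upward, H3C10 differed by +0.23 (SE 0.13), H4C1 by +0.16 (SE 0.076) and H1-10-AS1 by +0.16 (SE 0.099).

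No slope over concentration was called by limma for any member or chemical (0%, 0.00183% and 0% of all probe sets for fenbuconazole, imazalil and 2,4-D). An unadjusted p under 0.05 was found for 5, 1 and 1 members (4.3%, 4.92% and 3.67% of all). Per 10-fold step in concentration of fenbuconazole, H2BC21 had the steepest slope, at -0.090 (SE 0.025, p 0.000875, adjusted p 0.9998). Its mean stood at 3.26 at 0.001 µM, 3.42 at 0.01 µM and 2.91 at 10 µM, and at 2.99 in DMSO. H1-5 and H4C11 had slopes of -0.067 and -0.064, and H2BC13, H2BC10 and H4C5 of +0.066, +0.065 and +0.058. Under imazalil the largest slopes were +0.057 (H1-5), +0.048 (H4C7) and +0.046 (H1-1), and -0.045 (H4C8), -0.038 (H3C10) and -0.036 (H3C7). Under 2,4-D they were +0.040 (H4C9), +0.037 (H4C2) and +0.033 (H4C13), and -0.076 (H4C11), -0.066 (H1-3) and -0.063 (H2BC4). The joint test of all concentrations against DMSO called no member either (0% of all probe sets under each chemical), with 6, 3 and 5 members at an unadjusted p under 0.05 (4.73%, 3.38% and 3.77% of all).

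The 3 chemicals were compared at 10 µM through their differences from the other 8 concentrations, over 60 members and 3 pairs. None of these differences was called by limma (0.00366%, 0.00183% and 0.00183% of all probe sets for fenbuconazole against imazalil, fenbuconazole against 2,4-D and imazalil against 2,4-D). At an unadjusted p under 0.05 there were 3, 4 and 3 members (5.04%, 5.06% and 4.66% of all). The widest was H3C10, at -0.34 under imazalil and +0.23 under 2,4-D. That is a difference of -0.58 (SE 0.17, 95% interval -0.91 to -0.25, p 0.000889, adjusted p 0.881). Between the triazole and the imidazole H3C10 differed by 0.44 (0.11 to 0.77, adjusted p 0.899). H3C10 was read close to background, with means of 2.52, 3.19 and 3.19 in the fenbuconazole, imazalil and 2,4-D sets. The set medians were 2.77, 3.34 and 3.41. H3C1 differed by 0.46 between fenbuconazole and 2,4-D (0.11 to 0.81, adjusted p 0.922). These p-values are limma's, adjusted over all probe sets, and missing the threshold does not show that the chemicals acted alike.

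Differences between replicate numbers were called for some histone genes. Numbers were compared among the 27 treated arrays of each set, 9 per number, with concentration in the fit. In the fenbuconazole set no member was called by limma (0.797% of all probe sets), and 9 had an unadjusted p under 0.05 (12.1% of all). In the imazalil set 3 were called (1.85% of all probe sets), H4C11, H2BC3 and H2AC13, and in the 2,4-D set 2 (2.88%), H1-2 and H2AC6. In a fit of the 3 sets together, added after the data had been seen, 12 of 60 were called for a difference common to the sets, where 12.9% of all probe sets were. With 1 replicate number left out, the counts were 0 to 2 (imazalil), 0 to 1 (2,4-D) and 3 to 11 (joint fit, the lowest without number 2). The shares of all probe sets called in those fits are not reported here. Differences between the sets in these contrasts were called for no member (0.00366% of all probe sets; 7 at an unadjusted p under 0.05, 9.23% of all), with the smallest adjusted p 0.307.

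H2AC6, on a probe set of the s_at type, had the smallest p in the joint fit (adjusted p 3.6e-05 by limma). In the 2,4-D set its lowest, median and highest arrays were 7.44, 7.48 and 7.66 in number 1, 7.45, 7.55 and 7.75 in number 2, and 7.16, 7.38 and 7.58 in number 3. Number 2 was the highest and number 3 the lowest, with overlapping ranges, and the means differed by -0.20 (number 3 minus number 2, adjusted p 0.048 over the 3 numbers, by limma). The same order held in the other sets, where number 3 minus number 2 was -0.20 (fenbuconazole) and -0.14 (imazalil). H2BC12 (adjusted p 6.8e-05 in the joint fit, by limma) was also highest in number 2 in each set, above number 1 by 0.15, 0.10 and 0.087 in the fenbuconazole, imazalil and 2,4-D sets. Its within-number SDs were 0.047 to 0.091.

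H4C11, an H4 gene on a probe set of the x_at type, had the largest common difference of the 12, 0.45. In the imazalil set its lowest, median and highest arrays were 7.47, 7.69 and 7.92 in number 1, 7.55, 7.66 and 8.32 in number 2 and 6.87, 7.35 and 7.53 in number 3. Number 3 lay below the others with little overlap, by -0.53 against number 2 (adjusted p 0.0082 in that set, by limma). In the fenbuconazole set number 1 was the highest, at 7.51 ± 0.64 (SD, n = 9), and number 3 the lowest, at 6.75 ± 0.27 (adjusted p 0.079 by limma). The 2,4-D set showed less, with 7.88, 7.92 and 7.75 (adjusted p 0.471 by limma). In the joint fit the adjusted p was 0.00024.

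H2BC3 stood at 3.34 ± 0.10 in number 1, 3.18 ± 0.13 in number 2 and 3.03 ± 0.16 in number 3 of the imazalil set (SD, n = 9, adjusted p 0.031 by limma), all near or below the set's median of 3.34. H2AC13 stood at 5.29, 5.18 and 5.51 there (adjusted p 0.042 by limma). H1-2 stood at 8.24 ± 0.30, 8.67 ± 0.37 and 8.82 ± 0.17 in the 2,4-D set (SD, n = 9, adjusted p 0.046 by limma), number 3 above number 1 by 0.58. In the imazalil set H1-2 was also highest in number 3, at 8.79, but there number 2 was the lowest, 0.40 below it. In the joint fit H1-2 had an adjusted p of 0.0068, H1-4 of 0.013, H1-5 of 0.023 and H1-1 of 0.032, all by limma.

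The other called members of the joint fit were H2BC3 (adjusted p 0.0057), H2BC8 (0.0092), H2AC8 (0.029), H2AC14 (0.034) and H2AC13 (0.036), by limma, with largest common differences of 0.15 to 0.20. Of these, H2BC8 rests on a probe set of the s_at type and H2AC14 and H2AC13 on ones of the x_at type. All 3 replicate numbers stood in the same order in every set for 4 of 60 members, H2AC6, H2BC15, H3C1 and H3C7, where 6.97% of all probe sets did. The 18S ribosomal RNA control probe sets were highest in number 3 in each set (12.09, 12.51 and 12.61, against 11.93 to 11.96, 12.42 to 12.44 and 12.46 to 12.49 in the other numbers). Their part in the result was not tested. Running numbers in the labels fell in separate ranges, 169 to 196, 197 to 224 and 225 to 252, so replicate number and processing order cannot be told apart.

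**Figure D3:**
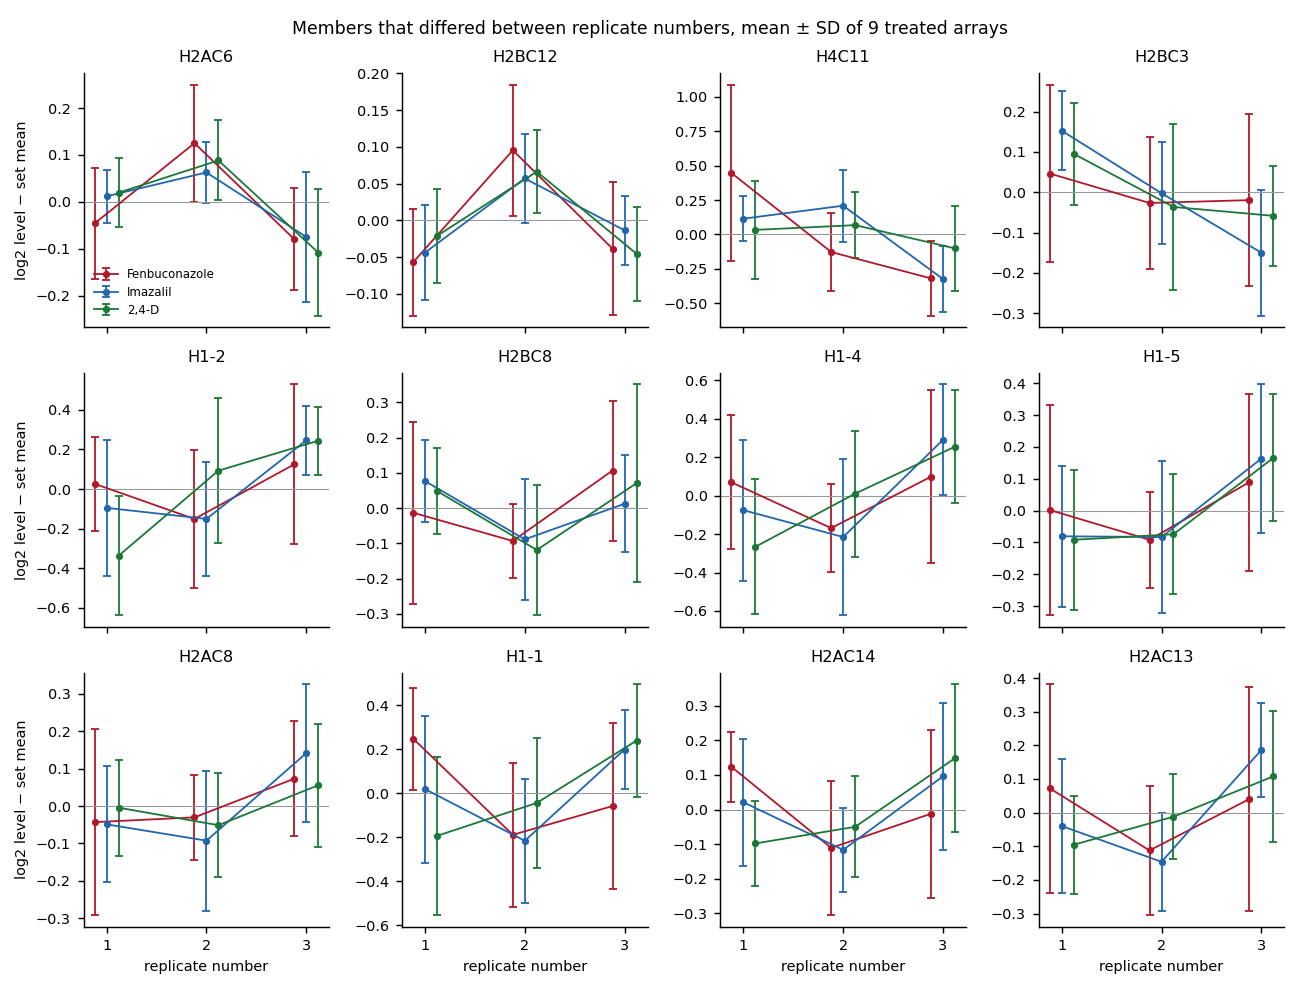
Log2 level minus the set's mean (vertical axis) by replicate number for the 12 members called in the joint fit, as mean and SD of the 9 treated arrays per number in each set. H2AC6 and H2BC12 peak in number 2 in every set, H4C11 is lowest in number 3 in every set, and the vertical scales differ between panels.

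H1-1, H1-2, H1-3 and H1-4 varied together from array to array. These 4 somatic linker genes had within-group SDs of 0.34 to 0.47, against a median of 0.160, 0.146 and 0.144 over all probe sets of the 3 sets, which put each above at least 99.5% of probe sets. H4C11 also spread widely, with SDs of 0.59, 0.36 and 0.21, so a wide spread was not particular to these linker genes. Over the 27 treated arrays of a set, the 6 pairs among them had Pearson r of 0.70 to 0.87 (fenbuconazole), 0.88 to 0.94 (imazalil) and 0.85 to 0.93 (2,4-D), and Spearman rho of 0.63 to 0.90 over all. All 18 passed a two-sided permutation test after Benjamini-Hochberg adjustment over 72 relations (adjusted p up to 0.00022 for r and 0.0020 for rho; 100000 resamples, whose smallest p is 1e-05). Leaving out the 2 farthest arrays gave r of 0.59 to 0.91, single replicate numbers gave 0.64 to 0.97, and removing concentration and number gave 0.59 to 0.95. These relations were chosen after the same arrays had been seen, so passing the test describes them and is not independent support. The permutation test also takes the arrays of a set as exchangeable. Levels differed between replicate numbers, and H1-2 differed less between neighbours in running order (below). The p-values of this test, here and in the next paragraphs, can therefore be too small.

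H1-2 ranged over the treated arrays from 7.35 through a median of 7.97 to 8.71 in the fenbuconazole set, from 7.90 through 8.63 to 9.16 in the imazalil set and from 7.69 through 8.56 to 9.34 in the 2,4-D set. The lowest and the highest array of the 2,4-D set were both read at 0.01 µM, in numbers 1 and 2. H1-1 ranged over 1.34, 1.26 and 1.65 log2 units in the fenbuconazole, imazalil and 2,4-D sets. The fifth somatic linker gene, H1-5, followed less closely, with r of -0.12 to 0.50 against those genes (-0.079 to 0.44 with concentration and number removed). By r 5 of 12 relations passed, 0 of 4 in the fenbuconazole set, 1 of 4 in the imazalil set and 4 of 4 in the 2,4-D set. The signal of H1-5 was low, with means of 3.17, 4.15 and 4.24 against set medians of 2.77, 3.34 and 3.41. The part of this low signal was not tested. Among H1-2, H2AC6, H2BC5, H2BC12 and H2BC21, 3 of 30 relations passed by r, with r of -0.35 to 0.64. H1-2 with H2BC5 in the 2,4-D set did not pass by rho (permutation test, adjusted p 0.121). H2AC6 with H2BC12 had r of 0.64, 0.11 and 0.55 in the fenbuconazole, imazalil and 2,4-D sets. Once concentration and number were removed r was 0.33, -0.037 and 0.39.

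Arrays next to each other in running order were compared with arrays further apart. The root mean square difference of H1-2 between neighbours (24 pairs a set) was 0.85, 0.60 and 0.62 of that between other arrays of the same number (84 pairs), where the median over all probe sets was 0.95, 0.95 and 0.96. For H1-1, H1-3 and H1-4 it was 0.67 to 0.92. Over the 27 treated arrays of a set H1-2 varied with the 18S control, with r of 0.56, 0.43 and 0.65 and rho of 0.57, 0.53 and 0.73 (permutation test, two-sided, adjusted p for r 0.00795, 0.0598 and 0.000916, for rho 0.00678, 0.0143 and 8e-05). Without the 2 arrays farthest from the median r was 0.42, 0.53 and 0.60, and with concentration and number removed it was 0.71, 0.20 and 0.60. Within single numbers it was 0.27 to 0.92 (fenbuconazole), 0.13 to 0.34 (imazalil) and 0.23 to 0.76 (2,4-D). With MALAT1, a nuclear long noncoding RNA, r was 0.34, 0.72 and 0.80 and rho 0.29, 0.78 and 0.63 (permutation test, adjusted p for r 0.154, 0.000189 and 4.24e-05, for rho 0.252, 4.5e-05 and 0.002), and r was 0.40, 0.76 and 0.69 without the 2 farthest arrays, 0.52, 0.67 and 0.84 with concentration and number removed, and 0.33 to 0.84 within single numbers. Against the 3′ minus 5′ signal of GAPDH and ACTB, a measure of RNA integrity, r was -0.19 to 0.14 and none passed the test (adjusted p 0.562 to 0.98). These pooled values covered relations of opposite sign. Against GAPDH in the fenbuconazole set r was -0.55, 0.54 and -0.87 in numbers 1, 2 and 3, and -0.44 with concentration and number removed. Over both genes and all sets, r within single numbers ran from -0.87 to 0.54. The part of processing order, 18S, MALAT1 and RNA integrity in the linker result was not tested.

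**Figure D4:**
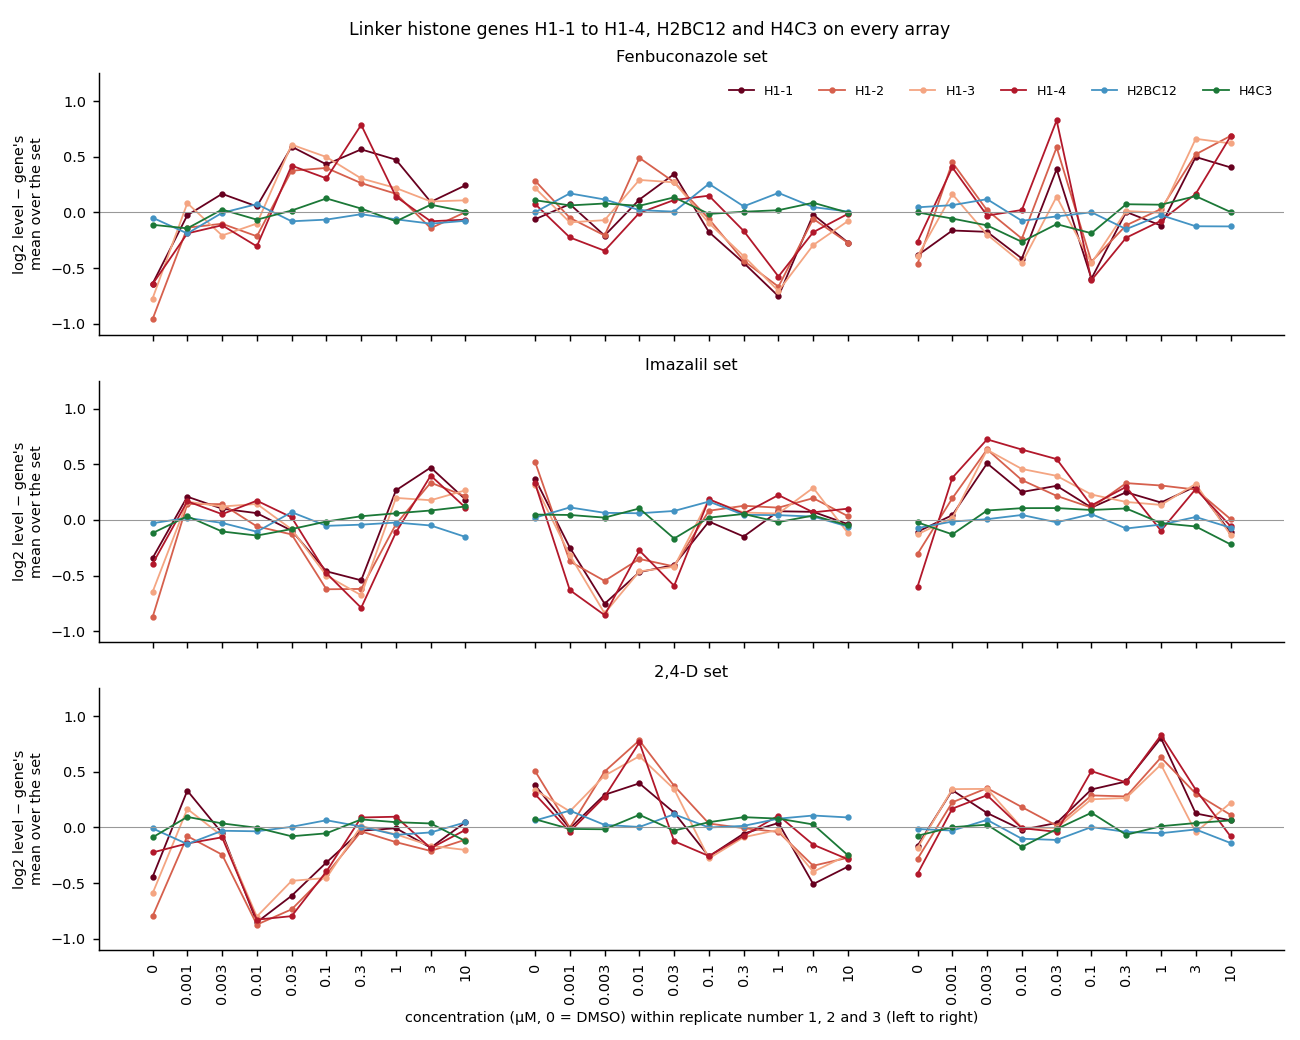
Log2 level minus the gene's mean over the set (vertical axis) of H1-1, H1-2, H1-3, H1-4, H2BC12 and H4C3 on every array, ordered by concentration in µM within replicate numbers 1, 2 and 3 from left to right. The 4 linker genes move together (r of 0.70 to 0.94), while H2BC12 and H4C3, shown for contrast, stay near 0. H2BC12 and H4C3 are among the steadier probe sets, with within-group SDs above only 3.0% to 17.4% of all probe sets.

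No gene of the lists around histone production was called with concentration. Lists of histone variants made outside the clusters (8 measured), histone mRNA transcription and 3′ end processing (18), histone chaperones (13), S phase (17) and G2 and M phase (12) held no called gene at 10 µM against DMSO, at 10 µM against the other 8 concentrations or along the slope, under any chemical. Median changes of the lists at 10 µM against DMSO lay between -0.042 (G2 and M, imazalil) and 0.0088 (S phase, 2,4-D). All 8 variants were lower at 10 µM imazalil than at the other concentrations, by a median of -0.023 (51.5% of all probe sets were lower). ZNF473, a zinc finger protein of histone 3′ end processing, differed by -0.35 under fenbuconazole against the other concentrations and by -0.26 under imazalil against DMSO. CSTF2, a cleavage factor subunit, differed by -0.31 under fenbuconazole against DMSO. None of these passed.

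Between replicate numbers 1 list gene was called in a single set, MIF4GD (adjusted p 0.0044 by limma, number 3 below number 2 by 0.24 in the 2,4-D set), which codes for a partner of the stem-loop binding protein. In the joint fit 2 variants, 3 processing genes, 2 chaperones, 4 S phase genes and 2 G2 and M genes were called, where 12.9% of all probe sets were. The median largest difference in that fit was 0.053 to 0.063 for these lists, against 0.085 for the 60 histone genes and 0.064 for all probe sets.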

How the data were processed

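Total RNA of A673 cells was hybridised by the authors to Affymetrix HT HG-U133+ PM arrays after 3′ IVT labelling. The deposited values are log2 intensities from RMA, a method that corrects background, quantile normalises and summarises probes, made by the authors with Partek for each chemical's 30 columns separately. Software versions are not given in the sources used here. Values ran from 1.44 to 13.7, and array medians from 2.76 to 2.83, 3.34 to 3.39 and 3.40 to 3.46 in the fenbuconazole, imazalil and 2,4-D sets. The number of arrays limits the precision.

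Columns were matched to samples by name, and groups and replicate numbers came from the labels. The 102 control probe sets were left out, and 54613 probe sets were tested. Of these 40914 have 1 gene symbol in the platform annotation, 864 several and 12835 none. Per set, limma 3.58.1 (R 4.3.3) was fitted with concentration as a factor. Contrasts were 10 µM and each other concentration against DMSO, 10 µM against the other 8 concentrations, the slope on log10 concentration and, with concentration as a term, the replicate number. Changes at 10 µM were compared between chemicals in 1 fit of the treated arrays. Adjustment was Benjamini-Hochberg over all tested probe sets, with the threshold at 0.05. Tables and correlations used Python 3.11.15 with pandas 2.3.3 and scipy 1.17.1, and figures matplotlib 3.10.9. The tests were tried on simulated data.

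Named with values were every called member (at most 12 a comparison), the 3 largest changes per direction, the 6 members with the smallest median p between replicate numbers, the 5 highest and the 5 lowest in DMSO, and H1-2, H2AC6, H2BC5, H2BC12 and H2BC21. Members, lists and tests were chosen with earlier results of these data known. The joint fit over sets, H1-1 and H1-4 at 10 µM, the linker and neighbour relations, the control RNAs and the promoters shown were chosen after values were seen. Symbols were updated to RefSeq names. Some genes of the lists are not reported here because no probe set names them alone. Alternatives were leaving out each replicate number, dim probe sets or s_at and x_at probe sets, eBayes with trend and robust, equal array medians, a second quantile normalization, the mean of a gene's probe sets, DMSO columns added, concentration left out, own DMSO as reference and the replicate number as a block.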

Additional observations from a re-analysis of the deposited data

How the results depend on the processing

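The 15 results on concentration and on chemicals gave 0 called members under each of their 168 values, replicate left out included, at an adjusted p under 0.05 by limma. That includes the fits with the replicate number as a block, which called 0 members in each. Same-numbered arrays did not deviate together in every pair (mean r 0.042, 0.069 and 0.078 over 135 pairs in the fenbuconazole, imazalil and 2,4-D sets, with 37, 46 and 52 pairs over 0.1). However, 25, 30 and 30 of 30 arrays correlated best with their own number. The main fits did not pair samples by number, so differences between numbers stayed in their spread. With the block, limma gave 5, 5 and 5 members at an unadjusted p under 0.05 against DMSO (5, 4 and 2 without it). Against the other 8 concentrations there were 4, 7 and 9 (4, 7 and 5 without it). The shares of all probe sets in the block fits are not reported here. The median change of the members under 2,4-D against the other 8 concentrations stayed negative, from -0.104 to -0.047. The other 5 medians took both signs, from -0.0031 to 0.039 (fenbuconazole), -0.071 to 0.058 (imazalil) and -0.043 to 0.0068 (2,4-D) against DMSO, and from -0.044 to 0.017 (fenbuconazole) and -0.101 to 0.019 (imazalil) against the other 8 concentrations. Counts between replicate numbers were less firm. The imazalil count of 3 was 1 without s_at and x_at probe sets, a step that removes H4C11 and H2AC13, and 0 to 2 with a replicate number left out. The 2,4-D count of 2 was 5 without dim probe sets, 4 with trend and robust, with a second quantile normalization, with the mean of a gene's probe sets and with concentration left out, 1 with equal array medians, 0 without s_at and x_at probe sets, and 0 to 1 with a number left out. The joint count of 12 was 7 without s_at and x_at probe sets and 3 to 11 with a number left out, lowest without number 2. The shares of all probe sets called between replicate numbers under these alternatives are not reported here. The shifts in count are therefore not read as results about the histone genes. Among single genes none past the threshold reversed. H2BC5 under imazalil and H2BC12 under 2,4-D at 10 µM against DMSO were -0.0046 and 0.0026 after a second quantile normalization. With a number left out, values against DMSO ran from -0.10 to 0.060 for H2AC6 and -0.20 to 0.098 for H2BC21 (fenbuconazole), -0.088 to 0.70 for H1-2 and -0.13 to 0.12 for H2BC5 (imazalil), and -0.19 to 0.54 for H1-2, -0.040 to 0.054 for H2BC5 and -0.049 to 0.041 for H2BC12 (2,4-D). Against the other 8 concentrations they ran from -0.011 to 0.35 for H1-3 (fenbuconazole) and -0.36 to 0.011 for H2AC11 (imazalil), and the slopes from -0.14 to 0.032 for H4C11 (fenbuconazole) and -0.0090 to 0.094 for H1-1 (imazalil). The causes were not tested. Members near or under the set medians, such as H3C1, H3C10, H4C6 and H2AC5P, were read close to background.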
